A study of Mus musculus with 8 samples.

Results

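The coreceptor genes Cd160, Btla, Cd244, Cd48, Slamf6 and Slamf7 were followed in CD8 T cells of spleen and liver. They were taken by name from a list, as 6 of the 31053 genes in the expression matrices, and all 6 have a row there. Single CD8 T cells were profiled with 10x Genomics 5′ chemistry, which counts RNA molecules by unique molecular identifiers (UMIs) and, in a parallel library, reads the T cell receptor (TCR) of the same cells. The 4 groups combine the genotypes WT and EomesTG with the organs. WT mice are C57BL/6 and EomesTG mice, on the same background, are homozygous (EomesTg/Tg) for a gain-of-function construct that makes T cells express the T-box transcription factor Eomes. The labels give neither the age and sex of the mice nor the promoter that drives the transgene. Cells of 3 mice per strain were pooled before sorting, so that each group is 1 expression library with 1 TCR library, and the organs of a genotype share a pool. No test of a condition is possible with 1 library per group: intervals below are exact 95% intervals that cover counting error only, and no p-value is given.

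Cd160 and Btla encode immunoglobulin-type receptors that bind the same partner, the herpesvirus entry mediator (Tnfrsf14). BTLA restrains lymphocytes through phosphatases recruited to its cytoplasmic tail, whereas CD160 is held in the membrane by a lipid anchor and is found on natural killer cells and on activated and intraepithelial CD8 T cells. The other 4 genes belong to the SLAM family. CD244 is a receptor of NK cells and antigen-experienced CD8 T cells whose ligand is CD48, a lipid-anchored protein present on most leukocytes. SLAMF6 and SLAMF7 bind copies of themselves on neighbouring cells; SLAMF6 is kept on naive and progenitor-type CD8 T cells, including the precursors of exhausted cells, and SLAMF7 appears on cytotoxic lymphocytes. The cytoplasmic tails of CD244 and SLAMF6 bind the adaptor SAP (Sh2d1a), which brings in the kinase Fyn, and they can inhibit when this adaptor is short. The design text names the role of Eomes in a specific transcriptional programme and in clonal expansion as the question; the comparisons below give the coreceptor part of that programme by organ, genotype, clone size and Pdcd1 RNA.

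The 4 SLAM genes lie within 393.978 kb of chromosome 1 (GRCm38, GENCODE M21): Cd244 at 171559193 to 171609746, Slamf7 at 171632403 to 171653035 on the minus strand, Cd48 at 171682009 to 171705258 and Slamf6 at 171917515 to 171953170. Cd160 is at 96798763 to 96829351 on the minus strand of chromosome 3, and Btla at 45224315 to 45257670 on chromosome 16. RefSeq (GRCm38.p6) lists 7 promoters for the 6 genes, each from 250 bases before to 50 after a transcription start, with 2 for Cd160. Because Eomes is a T-box factor, these were searched on both strands for the T-box core GGTGTGA and for a shorter site, AGGTGT, which can overlap with it. The core was present in promoters of 2 genes, Cd160 and Cd48, and among all 32851 promoters in 1307, or 3.98%. The shorter site was in none of the 7 and in 13.7% of all promoters. The bases around the 2 matches are shown because they are where these genes carry the letters of that core; capitals mark the match. The Cd160 match starts 189 bases before the second of the 2 starts (chr3:96814654-96814760, minus strand) and the Cd48 match 73 bases before the start (chr1:171681869-171681975, plus strand).
Cd160 promoter window: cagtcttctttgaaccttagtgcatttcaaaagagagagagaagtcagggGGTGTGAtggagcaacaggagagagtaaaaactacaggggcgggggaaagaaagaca
Cd48 promoter window: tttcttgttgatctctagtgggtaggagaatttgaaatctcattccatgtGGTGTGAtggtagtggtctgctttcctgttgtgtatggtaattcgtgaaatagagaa
A match is a description of these letters and no binding was measured.

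Lists of 4 values below follow 1 order, spleen before liver and WT before EomesTG within an organ. After filtering, 5333, 5726, 3126 and 4517 T cells remained, with 18939354 to 28754966 UMIs per library and median depths of 5025, 4751.5, 5463 and 3918 UMIs per cell. The T cell genes Cd3e, Cd8a and Cd8b1 were abundant in all 4. Eomes itself was at 86.9, 134, 84.7 and 182 counts per 1000000 UMIs (CPM), a log2 difference of 0.63 between the spleens and 1.10 between the livers; transgene and endogenous reads were not separated. Pdcd1, which encodes the inhibitory receptor PD-1, had at least 1 UMI in 148, 165, 253 and 2790 cells. NK-like clusters held 398 cells (12.7%) of WT liver and 90 (1.99%) of EomesTG liver; 57.5% and 42.2% of them had a productive TRA and TRB chain. All 6 listed NK markers had UMIs in each library, and they did not move as 1 group between the livers. In WT and EomesTG liver Fcer1g was at 202 and 84.4 CPM, Tyrobp at 128 and 62.2, Klrb1c at 37.9 and 22.6 and Ncr1 at 9.24 and 2.05, whereas Klrk1 was at 106 and 155 and Klre1 at 67.2 and 237. In the spleens the 6 lay between 0.636 (Ncr1, EomesTG) and 31.0 CPM (Klrk1, WT). Markers of non-T cells summed to 34.0, 21.1, 52.0 and 24.1 CPM.

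Levels are given as CPM of UMIs summed over the cells of a library. Such a sum cannot tell apart fewer cells of a type and less RNA per cell. A gene is called higher or lower when its CPM differs by at least 1.5-fold, the interval lies on that side of equality and the sides together hold at least 50 UMIs.

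Cd160 was at 51.2 CPM (interval 48.6 to 53.8) in WT and 22.3 (20.6 to 24.2) in EomesTG spleen, and at 198 (192 to 205) in WT and 304 (296 to 311) in EomesTG liver. No pair of these intervals overlapped, and the genotypes stood in opposite order in the 2 organs: EomesTG was lower in spleen and higher in liver. Btla was low throughout, at 17.9 (16.4 to 19.6), 14.5 (13.13 to 15.97), 13.1 (11.5 to 14.8) and 5.07 CPM (4.14 to 6.14). EomesTG liver was the lowest, WT liver and EomesTG spleen overlapped, and WT spleen was the highest.

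Cd244 was found mostly in liver: 34 and 12 UMIs in the 2 spleen libraries against 403 and 1624 in the livers. Its levels were 1.18 (0.819 to 1.65), 0.424 (0.219 to 0.741), 21.3 (19.2 to 23.5) and 79.1 CPM (75.3 to 83.1), and no intervals overlapped. Ly9, another SLAM gene on the opposite strand, overlaps Cd244 in the annotation, and the sources used here do not give whether the counting used strand; Ly9 differed by -0.30 on the log2 scale between the livers, where Cd244 differed by 1.89. Cd48, the ligand gene, was present in every group, at 182 (177 to 187), 166 (161 to 170), 263 (256 to 271) and 307 CPM (300 to 315). These 4 levels did not overlap either, but spanned a far narrower range.

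Slamf6 was lower in liver than in spleen, at 104 (101 to 108), 98.8 (95.2 to 103), 73.3 (69.5 to 77.3) and 34.2 CPM (31.7 to 36.8); the spleens overlapped and EomesTG liver was lowest. Gm37065, a gene model on the strand opposite Slamf6, overlaps it and had 370, 348, 173 and 78 UMIs, fewer than Slamf6 in each library (3000, 2795, 1389 and 701) and also lower in EomesTG than in WT liver; the part of shared reads was not tested. Slamf7 was at 39.1 (36.8 to 41.4), 29.4 (27.4 to 31.4), 95.3 (90.9 to 99.8) and 100.3 CPM (96.0 to 105), with the livers overlapping and both above the spleens.

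**Figure D1:**
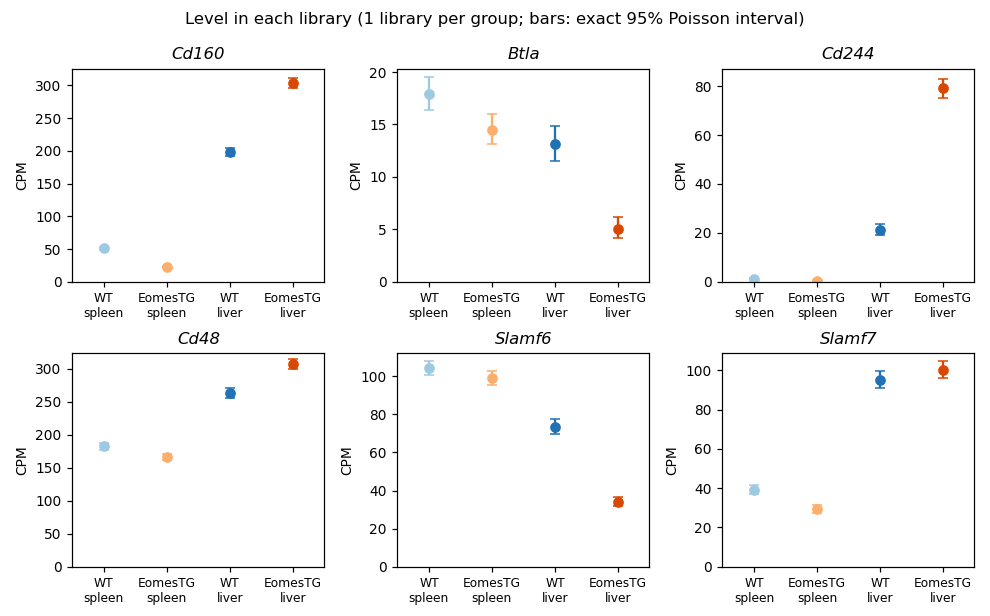
Level of each gene (CPM, vertical axis from 0) in the 4 libraries; points are libraries and bars exact 95% Poisson intervals. Cd244 is near 0 in both spleens and reaches 79.1 CPM in EomesTG liver, while Slamf6 drops from 104 CPM in WT spleen to 34.2 CPM in EomesTG liver.

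Between the livers, Cd160 and Cd244 were higher in EomesTG and Btla and Slamf6 were lower, that is 2 of 6 in each direction, where 13.7% of all tested genes were called higher and 6.67% lower. The log2 ratios of EomesTG over WT were 0.61 (0.56 to 0.67) for Cd160, 1.89 (1.74 to 2.06) for Cd244, -1.37 (-1.71 to -1.03) for Btla and -1.10 (-1.24 to -0.97) for Slamf6. Cd48, at 0.22 (0.17 to 0.28), and Slamf7, at 0.07 (-0.02 to 0.17), were not called. The median over the 6 genes was 0.15 and that over all tested genes 0.12.

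The liver difference in Cd160 changed sign without cells that WT liver hardly has. Clusters 1, 9 and 15, of which over 90% of cells came from EomesTG liver, held 2981 of its T cells and 22 of WT liver; with 1 library per group, a cluster type and its library cannot be told apart. Without them the log2 ratio was -0.15 for Cd160, 0.13 for Cd244, -0.16 for Slamf6, 0.01 for Cd48, -0.23 for Slamf7 and -0.62 for Btla, and only Btla was still called lower, with 2.50% of tested genes called lower in that comparison and 5.32% higher. Counting each clone once instead of each cell, over the cells with both receptor chains, gave -0.15 for Cd160. Without the NK-like clusters, which held 72.5% of the Cd244 UMIs and 41.6% of the Cd160 UMIs of WT liver, the ratios were larger, at 1.22 for Cd160 and 3.60 for Cd244.

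Between the spleens only Cd160 was called: EomesTG was lower by 2.29-fold (2.08 to 2.52), a log2 ratio of -1.19 (-1.33 to -1.06). This is 1 of the 5 genes with enough UMIs, beside 4.93% of all tested genes called lower and 2.68% called higher. Btla, Cd48, Slamf6 and Slamf7 had ratios of -0.31, -0.14, -0.08 and -0.41. Cd244 had too few UMIs for a call. The Cd160 difference was -1.22 among single-cell clones and -1.30 among Pdcd1-zero cells, and -0.30 (-0.94 to 0.31) among the cells of expanded clones. Spleen NK-like cells (254 in WT, 43 in EomesTG) held 221 of the 1471 Cd160 UMIs of WT spleen, and without them the ratio was -1.085. Of these cells, 248 and 41 were in cluster 14, led by Klra1 and Klra6, with 4 of 6 NK markers higher. The NK-like cells of liver were mostly in cluster 12 (379 in WT, 86 in EomesTG), with 6 of 6 higher. Cells of the naive-like clusters 0, 6 and 7 differed by -1.61 (-1.92 to -1.31) in Cd160, -1.15 in Slamf7 and -0.71 in Slamf6. In this class 4.6% of tested genes were lower and 3.32% higher. The clusters behind it differ, since 2626 of 2957 cells of cluster 0, led by Iigp1 and Ly6c1, were EomesTG spleen cells. Other spleen classes did not all go this way. The 549 WT and 333 EomesTG effector-like cells held 270 and 125 Cd160 UMIs, 239 and 185 of Slamf7 and 304 and 274 of Slamf6. For the 2536 and 1582 cells of unnamed clusters these were 523 and 244, 372 and 283, and 790 and 519. Per cell, Cd160 was lower in EomesTG in both classes, and Slamf7 and Slamf6 were higher.

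Liver exceeded spleen for Cd160, Cd244 and Slamf7 in WT mice, 3 of 6 genes, where 11.4% of tested genes were higher and 3.39% lower in liver. Cd160 was higher by 3.88-fold (3.65 to 4.12), Slamf7 by 2.44-fold (2.26 to 2.63) and Cd244 by 18.0-fold (12.7 to 26.3). The log2 ratios of Cd48 (0.53), Btla (-0.45) and Slamf6 (-0.51) stayed under 1.5-fold. Without the NK-like clusters, Cd160, Cd244 and Slamf7 were still higher, with log2 ratios of 1.48, 2.82 and 1.10 in place of 1.95, 4.17 and 1.29. In EomesTG mice all 6 genes were called, beside 23.6% of tested genes higher and 9.69% lower: Cd160 was 13.6-fold higher (12.5 to 14.8), Slamf7 3.41-fold (3.15 to 3.70), Cd48 1.86-fold (1.79 to 1.93) and Cd244 186-fold (106 to 362), the last against 12 spleen UMIs, and Btla and Slamf6 were lower, by log2 ratios of -1.52 and -1.53. These ratios share libraries with the genotype ratios above.

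Clones were then used to separate cells by expansion. A clone is the set of cells of a genotype with the same productive TRA and TRB chains, by V, J and CDR3 nucleotides, and its size is its number of T cells in a library. All chains must match, so a cell with a chain missed or added counts as another clone. Single-cell clones and other small clones can therefore hold cells that belong to larger clones. Cells of expanded clones (2 or more cells) numbered 140, 117, 435 and 2347. EomesTG liver held 19 clones of at least 20 cells, together 1799 cells or 39.8% of its T cells; WT liver held 3, WT spleen 1 and EomesTG spleen 0. By TRB chains alone, which also takes in cells without a TRA chain, EomesTG liver held 24 such clones. The largest of those had 522 cells. The CDR3 sequences of the clones that the values below turn on are shown to make them recognisable, and to show which clones share a chain.
EomesTG liver clone 1 (492 cells), TRA: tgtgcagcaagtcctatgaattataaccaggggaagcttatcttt
EomesTG liver clone 1, TRB: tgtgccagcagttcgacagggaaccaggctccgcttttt
EomesTG liver clone 2 (430 cells), TRA: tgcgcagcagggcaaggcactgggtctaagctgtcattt
EomesTG liver clone 2, TRB: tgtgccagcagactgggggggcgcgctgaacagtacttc
EomesTG liver clones 3, 4 and 16 (147, 132 and 29 cells), TRB: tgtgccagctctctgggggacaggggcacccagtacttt
EomesTG liver clones 3 and 4, TRA: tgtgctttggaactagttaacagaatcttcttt
EomesTG liver clones 3 and 16, TRA: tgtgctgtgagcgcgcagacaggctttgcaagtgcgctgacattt
WT clone 1 (114 cells in liver, 39 in spleen), TRA: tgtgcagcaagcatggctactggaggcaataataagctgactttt
WT clone 1, TRB: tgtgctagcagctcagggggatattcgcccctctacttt
WT liver clones 2 and 3 (24 and 22 cells), TRB: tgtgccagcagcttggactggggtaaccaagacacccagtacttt
Clone 3 of EomesTG liver carries both TRA chains, clone 4 the first and clone 16 the second, on 1 shared TRB chain, so these 308 cells are not 3 independent receptors. The same holds for WT liver clones 2 and 3, which share a TRA chain as well, and for EomesTG liver clones 8 and 9 (54 and 50 cells), which share a TRA chain and a TRB chain; clone 8 also carries the TRB chain of clone 2.

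Cells of expanded clones in EomesTG liver had more Cd160, Cd244, Cd48 and Slamf7 RNA than cells of single-cell clones and less Btla and Slamf6. This is 4 of 6 genes higher and 2 lower, beside 28.5% and 8.10% of all tested genes. Cd160 was at 412 CPM against 120, a log2 ratio of 1.78 (1.66 to 1.90). For Cd244 the values were 108 and 13.2 CPM, or 3.04 (2.69 to 3.40). Cd48 and Slamf7 differed by 0.80 (0.71 to 0.90) and 0.70 (0.53 to 0.87), Slamf6 by -2.34 (-2.62 to -2.07) and Btla by -2.12 (-2.92 to -1.37). WT liver had the same 4 and 2 genes on each side, beside 19% and 6.70% of tested genes, with 0.97 for Cd160, 1.56 for Cd244, 1.47 for Cd48, 1.49 for Slamf7, -1.11 for Btla and -0.59 for Slamf6. Without the NK-like clusters Slamf6 was no longer called there (-0.47). In the spleens Cd160, Cd48 and Slamf7 were higher in expanded clones in both genotypes, beside 12.5% (WT) and 10.9% (EomesTG) of tested genes called higher and 3.11% and 1.93% lower. The spleen log2 ratios, WT first, were 1.05 and 1.96 for Cd160, 1.57 and 1.33 for Cd48, and 1.87 and 2.06 for Slamf7, while Slamf6 was at -0.06 and 0.05 and Btla at -0.67 and 0.01; Cd244 had under 50 UMIs.

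Within EomesTG liver the 6 genes took different courses over 5 clone size classes of 906, 220, 328, 598 and 1201 cells (1 cell, 2 to 4, 5 to 19, 20 to 99, and 100 or more). Cd160 stood at 120, 434, 395, 426 and 405 CPM, so that clones of 2 to 4 cells were near the level of the largest. Some of these small clones may be parts of larger ones, which was not tested. Cd244 went from 13.2 to 55.0, 93.3, 133 and 111 CPM, higher in each class up to 20 to 99 cells. Slamf6 went the other way, with 74.4, 48.4, 16.5, 6.81 and 11.3 CPM. Slamf7 was highest in clones of 2 to 4 cells, with 70.6, 176, 152, 104 and 97.1 CPM, and in the largest class its ratio to single-cell clones was 0.46 (0.27 to 0.66), under 1.5-fold. Cd48 was at 216, 410, 389, 383 and 365 CPM, and Btla at 9.06, 3.73, 4.80, 1.51 and 1.30 CPM on 4 to 48 UMIs. Pdcd1 moved with these classes, at 67.7, 319, 597, 771 and 742 CPM, and the median depth was 5689 UMIs in single-cell clones and 3849 in the largest; their part in the differences was not tested.

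WT liver classes of 1946, 145, 130, 46 and 114 cells gave a less regular picture, since the last 2 rest on 3 clones. Cd160 was at 163, 305, 390, 883 and 138 CPM, and Cd244 at 12.4, 20.3, 45.3, 200 and 3.24 CPM. The high value at 20 to 99 cells is that of clones 2 and 3, of which 100% and 95.5% of cells were in the NK-like cluster 12, and the low value is WT clone 1. Cd48, in contrast, was highest in that clone, at 207, 505, 506, 403 and 730 CPM. Slamf6 was at 78.9, 46.8, 77.0, 4.24 and 51.8 CPM and Slamf7 at 70.7, 192, 232, 204 and 179 CPM.

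**Figure D2:**
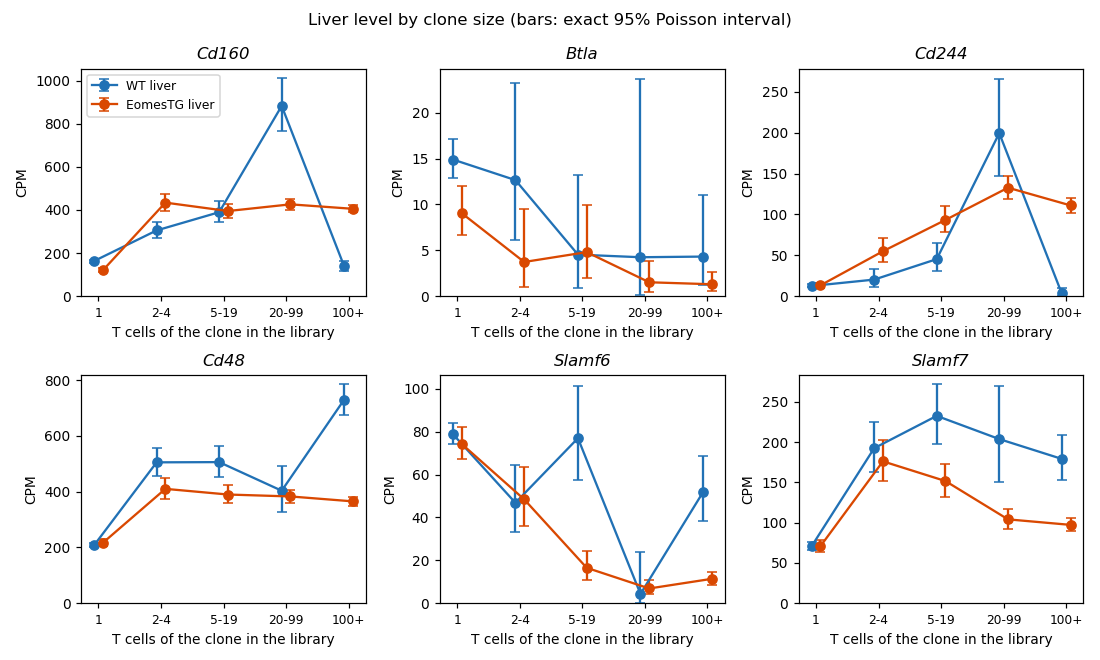
Level of each gene (CPM, vertical axis from 0) by clone size class (horizontal axis) in WT liver and EomesTG liver; bars are exact 95% Poisson intervals. In EomesTG liver Cd160 is at 434 CPM in clones of 2 to 4 cells. Cd244 reaches 133 CPM in clones of 20 to 99 cells and Slamf6 declines to 6.81 CPM. The WT peaks of Cd160 and Cd244 come from clones that share a TRB chain.

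The large clones of EomesTG liver stood on 1 side of its single-cell clones for 5 of the 6 genes. All 19 had more Cd160 than the single-cell clones of that library, from 241 to 691 CPM with a median of 411, and all 19 had more Cd244, from 58.3 to 220 CPM with a median of 147; in each case the clone's interval lay above. Slamf6 lay between 0 and 22.8 CPM, median 6.95, below the 74.4 CPM of single-cell clones in all 19 and with the interval below it in 18. Btla was between 0 and 6.95 CPM, on 0 to 3 UMIs per clone, below 9.06 in all 19, but with the interval below in 2. Cd48, between 235 and 541 CPM, was above the single-cell level in all 19 (interval above in 15). Slamf7 ranged from 46.5 to 253 CPM, with 16 clones above 70.6 CPM and 3 below; the interval lay above in 9 and below in 0. The 19 clones use 17 distinct sets of TRB chains and are not all separate receptors.

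The largest, clone 1 (TRAV14D-1 with TRAJ23, TRBV3 with TRBJ1-5), had 450 CPM of Cd160, 114 of Cd244, 353 of Cd48, 7.46 of Slamf6 and 83.3 of Slamf7. Clone 2 (TRAV19 with TRAJ58, TRBV15 with TRBJ2-7) was close to it, at 411, 125, 343, 9.48 and 91.1 CPM for the same genes. Clone 3, which also had 7 cells in spleen and lay mostly in cluster 9, had lower Cd160 (294 CPM, 256 to 336, against 423 to 478 in clone 1) and a Slamf6 level of 20.4 CPM (11.4 to 33.7), whose interval overlaps that of clone 1 (4.34 to 11.9). WT clone 1 (TRAV10 with TRAJ56, TRBV29 with TRBJ1-6) allows the same receptor to be compared across organs. In liver over spleen cells its log2 ratios were 0.59 (-0.08 to 1.34) for Cd160, 0.14 (-0.11 to 0.41) for Cd48, -0.24 (-1.12 to 0.74) for Slamf6 and -0.06 (-0.56 to 0.46) for Slamf7, all with intervals across 0. Cd244 had 3 UMIs in its liver cells and 1 in its spleen cells.

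**Figure D3:**
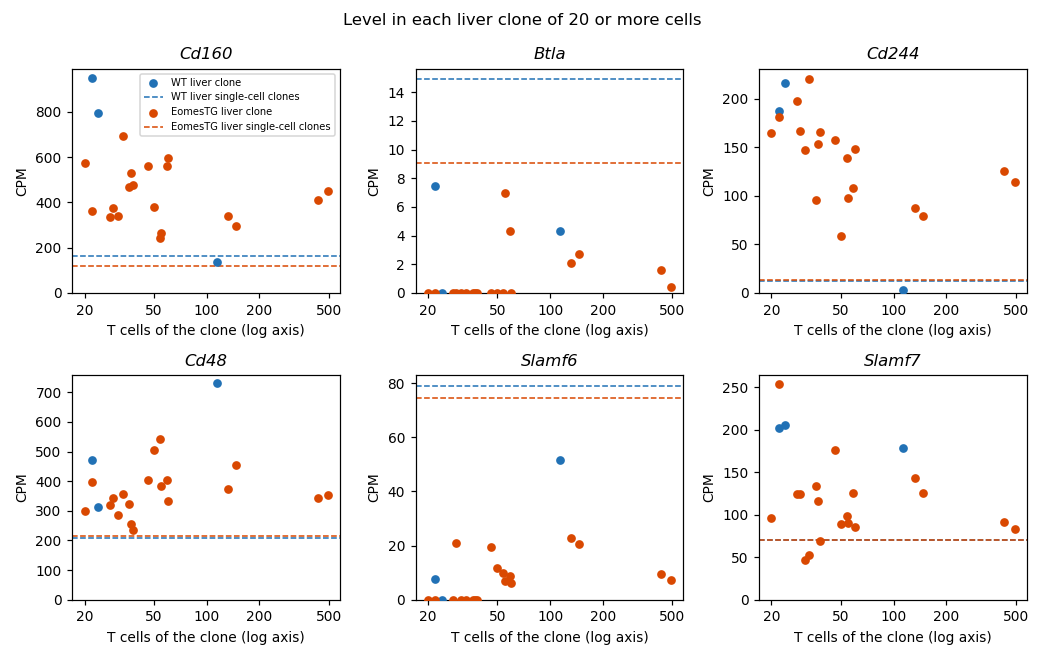
Level of each gene (CPM, vertical axis from 0) in each liver clone of at least 20 cells against its number of cells (log axis); dashed lines are the single-cell clones of each library. All 19 EomesTG clones lie above the line for Cd160 and Cd244 and below it for Slamf6, and Slamf7 lies on either side.

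The livers were also compared within single-cell and within expanded clones, where 1 and 4 genes were called; the change in a ratio from 1 class to the other was not tested. The expanded cells are not alike in clone size, since 1201 of 2347 in EomesTG liver and 114 of 435 in WT liver were in clones of 100 or more. Among single-cell clones (906 EomesTG and 1946 WT cells) only Btla was called, lower by a log2 ratio of -0.72 (-1.21 to -0.26), beside 3.36% of tested genes lower and 2.75% higher. The other 5 ratios were -0.44 for Cd160, 0.09 for Cd244, 0.06 for Cd48, -0.09 for Slamf6 and -0.00 for Slamf7. Among cells of expanded clones (2347 and 435), Cd244 was higher, by 1.56 (1.26 to 1.88), and Slamf6, Slamf7 and Cd48 were lower, by log2 ratios of -1.84 (-2.18 to -1.50), -0.80 (-0.95 to -0.65) and -0.61 (-0.70 to -0.52); 12.3% of tested genes were higher and 9.04% lower there. Cd160, at 0.37 (0.26 to 0.48), stayed under 1.5-fold, and Btla had under 50 UMIs. The lower Cd48 and Slamf7 of these cells were not seen between whole livers. With each clone counted once, only Cd244 was still called (0.996), and Slamf6, Slamf7 and Cd48 were at -0.50, -0.30 and -0.27. That weighting gave no interval, so the call rests on fold and the UMI minimum alone. Without clusters 1, 9 and 15, Cd244 (0.63) and Slamf7 (-0.66) were still called. The share of all tested genes called was not worked out for either setting, so nothing is read from these counts of genes.

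Splitting cells by Pdcd1 gave different pictures by library. Pdcd1-positive cells have at least 1 UMI, and zero cells include those whose Pdcd1 RNA was not sampled. In EomesTG liver (2790 against 1727 cells) Cd160, Cd244 and Cd48 were higher in positive cells and Btla and Slamf6 lower, beside 22.4% and 8.04% of tested genes. The positive cells had 389 CPM of Cd160 against 165, 109 of Cd244 against 30.5, 365 of Cd48 against 215, 2.76 of Btla against 8.79 and 18.4 of Slamf6 against 59.6. Slamf7, at 110 and 84.8 CPM, differed by 0.37 (0.24 to 0.51). Median depths were 3793.5 and 4273 UMIs. With cells of at least 2000 UMIs thinned to 2000 and shallower cells left out, 2 genes were called higher and 1 lower. The share of all tested genes called was not worked out for this setting, so nothing is read from this count.

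In WT liver (253 against 2873 cells), Cd48, Slamf6 and Slamf7 were higher in positive cells, 3 of 6 beside 13.2% of tested genes higher and 4.55% lower. Slamf6 was at 118 CPM in positive and 67.5 in zero cells, a log2 ratio of 0.81 (0.61 to 1.01), where EomesTG liver had -1.70 (-1.93 to -1.47). Cd160 (209 and 197 CPM) and Cd244 (21.0 and 21.3 CPM) had intervals of the ratio across 0 (-0.06 to 0.23 and -0.50 to 0.43), as did Btla, at -0.16 (-0.80 to 0.43). The spleens went the way of WT liver for Slamf6, at 0.47 in WT, under 1.5-fold, and 0.75 in EomesTG. They also had more Cd160 (1.36 and 2.37), Cd48 (0.87 and 1.10) and Slamf7 (1.26 and 2.57) in positive cells, beside 15.2% and 14.2% of tested genes called higher and 3.40% and 3.23% lower. Btla was at -0.32 and 0.55 there, called neither way, and Cd244 had under 50 UMIs. In WT liver and in both spleens, positive cells had more UMIs per cell on average than zero cells. The 215 cycling-like cells of WT liver held 104 of its 440 Pdcd1 UMIs, and their part in the ratios was not tested.

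Set side by side, Pdcd1-positive cells of the livers differed between genotypes by 0.90 (0.76 to 1.04) in Cd160, 2.38 (1.95 to 2.83) in Cd244, -2.11 (-2.88 to -1.31) in Btla and -2.69 (-2.95 to -2.43) in Slamf6, 2 genes called in each direction beside 15.4% higher and 10.0% lower. Cd48 (-0.25) and Slamf7 (-0.47) were not called. Among Pdcd1-zero liver cells only Btla was called, at -0.592 (-1.003 to -0.196), beside 3.65% of tested genes lower and 4.07% higher; Cd160 was at -0.25, Cd244 at 0.52, Cd48 at -0.16, Slamf6 at -0.18 and Slamf7 at -0.05. The Btla call sits at 1.51-fold and was lost with median-of-ratios scaling (-0.573). Without the NK-like clusters the zero cells also differed in Cd244, by 2.10, and Cd160 was at 0.20.

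The split was then made within single-cell and expanded clones of EomesTG liver, with Btla under 50 UMIs in both. In single-cell clones (151 positive and 755 zero cells) Cd160 was higher in positive cells by 1.80 (1.56 to 2.03), Cd244 by 3.31 (2.55 to 4.11), Cd48 by 0.93 (0.75 to 1.12) and Slamf7 by 1.43 (1.11 to 1.73), 4 of 5 genes with enough UMIs beside 21.4% of tested genes higher and 3.51% lower. Slamf6 was at 0.43 (0.07 to 0.77) there. In expanded clones (1987 and 360 cells) Cd160 (-0.08) and Cd48 (0.01) were close to equal, Cd244 was higher by 0.60 (0.31 to 0.91), and Slamf6 and Slamf7 were lower, by log2 ratios of -1.51 (-2.02 to -0.98) and -0.87 (-1.07 to -0.66), beside 4.34% of tested genes higher and 4.47% lower. By size class the Cd244 ratio was 1.24 in clones of 2 to 4 cells and 1.06 in those of 5 to 19, and 0.07 (-0.47 to 0.66) and -0.08 (-0.53 to 0.41) in those of 20 to 99 and of 100 or more. In the 5 clones with at least 10 cells on each side, Slamf7 was lower in positive cells in 4, with an interval below 0 in clone 1, at -1.30 (-1.92 to -0.62). Cd160 was higher in 3 of these clones and lower in 2, with the interval above 0 in clone 4, at 0.68 (0.01 to 1.42). Cd244 was higher in 2 and lower in 3, with the interval above 0 in clone 14, at 2.25 (0.19 to 5.39). Clones 3 and 4, which share a TRB and a TRA chain, are both among these 5. Cd48 was higher in 4, with the interval above 0 in 2, although its ratio over all expanded clones was 0.01. Slamf6 was lower in 3 and higher in 1, with no interval below 0. Btla was higher in 4, on 1 to 3 UMIs in positive cells against 0 in zero cells, with no interval above 0. These counts are too low to give a direction.

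The same split was made by cluster. Inside clusters 1, 9 and 15 (2506 positive and 475 zero cells) Cd160, Cd244 and Cd48 stayed under 1.5-fold: the log2 ratio was 0.14 (0.00 to 0.28) for Cd160, -0.21 (-0.44 to 0.02) for Cd244 and 0.39 for Cd48. Slamf7 was at -0.48, and Btla had under 50 UMIs. Slamf6, at 8.26 against 15.5 CPM, was the 1 gene called, lower by a ratio of -0.91 (-1.64 to -0.11), beside 3.19% of tested genes lower and 2.28% higher. In all other clusters of EomesTG liver (284 and 1252 cells) Cd160, Cd244 and Cd48 were higher in positive cells, by 1.30, 2.53 and 1.02, and Btla was lower, by a ratio of -1.06, beside 29.4% of tested genes higher and 9.90% lower. Slamf6 was at 59.3 and 67.8 CPM there, a ratio of -0.19 (-0.47 to 0.08), and Slamf7 at 0.53 was under 1.5-fold.

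**Figure D4:**
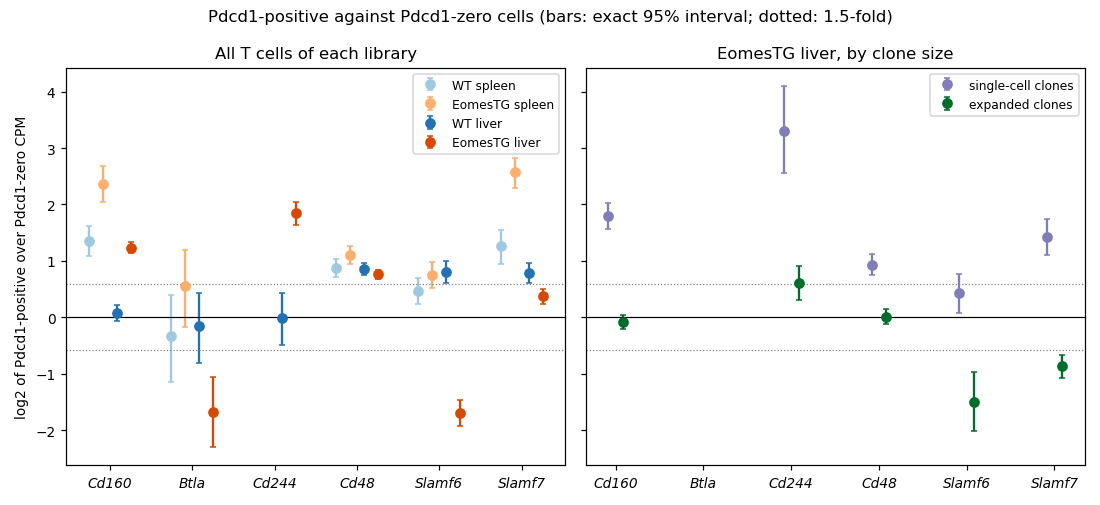
Log2 ratio of CPM in Pdcd1-positive over Pdcd1-zero cells (vertical axis) for each gene, by library on the left and for single-cell and expanded clones of EomesTG liver on the right; bars are exact 95% intervals, dotted lines mark 1.5-fold, and genes under 50 UMIs are not drawn. Slamf6 is above 0 in WT liver (0.81) and below it in EomesTG liver (-1.70), and Slamf7 is at 1.43 in single-cell and -0.87 in expanded clones.

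Cells were clustered without the 6 genes, Pdcd1 and Eomes, so their own counts did not enter the clustering. Genes of similar pattern were not left out, so the levels by cluster are not independent of it. Levels here sum the 4 libraries, whose shares differ by cluster. The NK-like cluster 12 had the highest Cd160 (968 CPM, 923 to 1013), the highest Cd244 (186 CPM, 167 to 207) and little Slamf6 (13.5 CPM). Among clusters with at least 20 cells of a liver it was also the highest within each liver, with 979 CPM of Cd160 in WT and 952 in EomesTG liver, and 186 and 196 CPM of Cd244. The memory-like cluster 11, led by Asb2 and P2rx7, had 634 CPM of Cd160 (601 to 669) but 26.0 of Cd244. Exhausted-like clusters 1, 9 and 15, with all 7 listed markers higher, had 428, 307 and 310 CPM of Cd160, 137, 70.0 and 93.3 of Cd244, and 6.83, 23.7 and 5.92 of Slamf6. Slamf6 was highest in naive-like cluster 6 (223 CPM, 213 to 234) and stood at 132 CPM in the effector-like cluster 4, which also had 389 CPM of Cd48. Cluster 7, naive-like with all 7 markers, had 5.26 CPM of Cd160 and no Cd244 UMI in 1021 cells, an upper bound of 0.776 CPM.

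Within EomesTG liver, exhausted-like cells were 66.0% of T cells and held 87.0% of the Cd244 UMIs, 73.9% of the Cd160 UMIs and 14.7% of the Slamf6 UMIs. At a depth of 2000 UMIs, 51.8% of them had a Cd160 UMI, against 0.617% of the naive-like cells of that library, which give the level free RNA could reach; median depths before thinning were 3500 and 5776 UMIs. In liver NK-like cells neither Cd160 (-0.08, -0.28 to 0.11) nor Cd244 (0.04, -0.42 to 0.48) was called between genotypes, beside 3.37% of tested genes higher and 2.30% lower. The Cd160 ratio of memory-like liver cells was -0.33 (-0.49 to -0.16). Naive-like liver cells held 37 Cd160 UMIs in 117 WT cells and 7 in 165 EomesTG cells. Cells of unnamed clusters held 446 in 1347 and 97 in 622, so both classes had fewer per EomesTG cell. Effector-like cells held 329 in 677 and 166 in 227, and interferon-responding cells 38 in 96 and 24 in 35, more per EomesTG cell. Cycling-like liver cells of EomesTG mice had more Cd160 (0.63, 0.46 to 0.80) and Cd244 (2.35, 1.79 to 2.94) and less Slamf6 (-1.26, -1.67 to -0.86), beside 10.3% of tested genes higher and 6.11% lower.

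**Figure D5:**
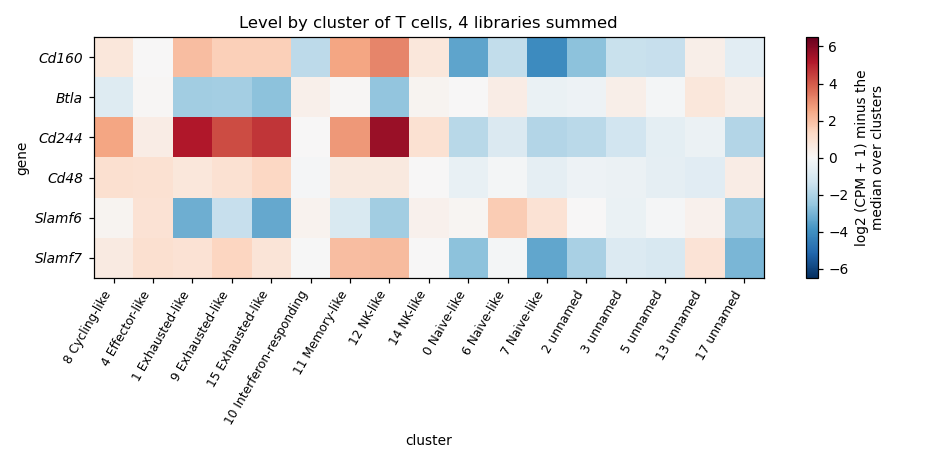
Level of each gene in each T cell cluster, with the 4 libraries summed, as log2 (CPM + 1) minus the median over clusters (colour scale from -6.5 to 6.5). Cd160 and Cd244 are high in NK-like cluster 12 and in exhausted-like clusters 1, 9 and 15, where Slamf6 is low, with 6.83 CPM in cluster 1 against 223 CPM in naive-like cluster 6.

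Genes of the set were also counted in the same cells, with each cell of at least 2000 UMIs thinned to 2000. Shallower cells were left out, 586 of 4517 T cells in EomesTG liver and 193 of 3126 in WT liver. In EomesTG liver, Cd244 had a UMI in 334 of 1593 cells with Cd160 (21.0%) and in 238 of 2338 without (10.2%). Slamf6 had a UMI in 3 of 572 cells with Cd244 (0.524%, 0.108 to 1.53) and in 211 of 3359 without (6.28%, 5.49 to 7.16). In WT liver, Cd244 was found in 102 of 687 cells with Cd160 (14.8%) and 37 of 2246 without (1.65%), and Slamf6 in 6.11% and 12.9% of the same 2 groups. These are counts of cells in 1 library each. Of the 6 genes, exactly 2 had a UMI in 28.1% of thinned EomesTG liver cells and 18.3% of WT liver cells, and exactly 3 in 9.13% and 5.97%.

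Over 13 points, each a clone size class of at least 50 cells in a library, Cd160 and Cd244 had a Pearson r of 0.90 on log2(CPM + 1), Cd48 and Slamf7 0.91, and Btla and Slamf6 0.84, while Cd244 and Slamf6 had -0.82. The points share libraries and mouse pools, and these values are descriptions. Among 9303 genes, the closest to Cd160 were Cxcr6 (r = 0.98), Tra2b and Osbpl3. Those closest to Cd244 were Lat2 (0.98), Tmcc3 and Cd7, to Cd48 S100a13 (0.97), Lsp1 and Ebp, and to Slamf7 S100a13 (0.96), Itgal and Sephs2. For Slamf6 they were Sidt1 (0.97), S1pr1 and AB124611, and for Btla Smim4 (0.95), Macf1 and Fchsd2.

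Of these pathways, 19 other genes were examined: further SLAM receptors, ligands, adaptors, kinases and phosphatases. Of the 15 with enough UMIs, 3 were higher and 1 lower in EomesTG than in WT liver, shares near the 13.7% and 6.67% of all tested genes. The higher ones were Slamf1, another SLAM receptor (0.72), Fyn, the kinase that SAP recruits (0.74), and Ptpn11, a phosphatase that binds BTLA (1.01); Tnfsf14, a ligand of the herpesvirus entry mediator, was lower (-0.78). Without clusters 1, 9 and 15 none of the 4 was called, with Slamf1 at 0.57, Fyn at 0.03, Ptpn11 at 0.26 and Tnfsf14 at -0.36. Sh2d1a, which encodes SAP, was at 0.54 and Ptpn6 at -0.57, both called neither way. The median of the 15 was 0.15. Between the spleens 0 of 15 were called, beside 2.68% of all tested genes higher and 4.93% lower. In expanded against single-cell clones of EomesTG liver, 6 were higher, Sh2d1a (0.91), Fyn (1.24), Ptpn11 (1.5), Inpp5d (0.71), Slamf1 (0.67) and Csk (0.64), and Tnfsf14 was lower (-0.76), beside 28.5% and 8.10% of all tested genes. Tnfrsf14, the shared partner of CD160 and BTLA, was lower in liver than in spleen in both genotypes (-0.63 in WT and -0.69 in EomesTG). For scale, 6 of 6 checkpoint receptor genes (Pdcd1, Lag3, Tigit, Havcr2, Ctla4 and Cd200r1) were higher in EomesTG than in WT liver, with a median log2 ratio of 3.18, beside 13.7% of all tested genes. Without clusters 1, 9 and 15 Ctla4 was no longer called (0.24), and the other 5 were, beside 5.32% of tested genes called higher. All but Pdcd1 are on the marker list that names those clusters and were not left out of the clustering. Lower ratios without the clusters are thus partly built in.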

How the data were processed

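The authors deposited raw UMI counts per gene and barcode, and contig tables with counts of UMIs and reads per TCR contig. Cell Ranger and mm10 are named, per the submitters' processing notes, and the matrices carry software 3.1.0, per the file headers. Barcodes under 500 UMIs or 300 genes, or with 10% or more mitochondrial UMIs, were dropped (80, 48, 177 and 66, in the order used in the report), as were 30 cells of a cluster without T cell identity. No doublet caller was run; 6.34, 6.16, 6.81 and 3.90% of barcodes with 2 productive TRB chains stayed in, and an alternative drops them. Between 23 and 59 barcodes were shared by pairs of libraries. Clustering used scanpy 1.11.5 (2000 variable genes, 30 principal components, 15 neighbours, Leiden resolution 1.0, no integration) without the 6 genes, Pdcd1, Eomes, antigen receptor, mitochondrial, ribosomal protein and sex-linked genes. It gave 18 clusters, named from marker lists by at least 3 markers higher than elsewhere; that naming rule was set after the clusters were seen. Intervals are exact Poisson (CPM), conditional binomial (ratios) and Clopper-Pearson (shares), at 95%, from scipy 1.17.1. The ratio script was tested on simulated data. The members and lists were chosen with earlier results of these data known. The rule was to name all 6 genes in every comparison; within cell classes made from clusters only part of them are printed. Genes of similar pattern are the 3 with the highest Pearson r among genes of at least 200 UMIs. Alternatives covered scaling, thinning, barcode filters, clone definition, clone weighting, clusters and thresholds.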

Additional observations from a re-analysis of the deposited data

Results flagged for a closer look

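Cd160 was called in opposite directions in the 2 organs, with a log2 ratio of EomesTG over WT of -1.19 in spleen and 0.61 in liver. Slamf6 was higher in Pdcd1-positive than in Pdcd1-zero cells of EomesTG spleen (0.75) and WT liver (0.81) and lower in EomesTG liver (-1.70). Slamf7 was higher in Pdcd1-positive cells of single-cell clones of EomesTG liver (1.43) and lower in those of its expanded clones (-0.87). With 1 library per group, none of these 3 differences between groups of cells was tested; each is given because the direction is opposite.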

How the results depend on the processing

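Over 16 comparisons, 590 values of single genes and 112 counts of called genes were recomputed. Of the values, 411 stayed within the interval of the value reported, 177 moved outside it and 2 called values reversed, both Cd160 between the livers: -0.147 with each clone counted once and -0.153 without the clusters of which over 90% of cells come from 1 library. Of the counts, 100 stayed within 1.5 times. Without those clusters the count went from 4 to 1 between the livers, from 1 to 3 in single-cell clones, from 4 to 2 in expanded clones and from 1 to 2 in Pdcd1-zero liver cells. Counting each clone once takes only cells with a TRA and a TRB chain and gives no interval. By fold and UMI minimum alone the count went from 4 to 2 between the livers and from 4 to 1 in expanded clones. With cells thinned to 2000 UMIs, and shallower cells left out, it went from 1 to 2 between the spleens and in Pdcd1-zero liver cells. For Pdcd1-positive against Pdcd1-zero cells of EomesTG liver it went from 5 to 3. With no minimum of UMIs the spleens gave 2. Median-of-ratios scaling gave 0 in Pdcd1-zero liver cells, and leaving out NK-like clusters, an alternative chosen after seeing the data, gave 2. Among these alternatives, the share of all tested genes called was worked out only for whole livers without the clusters mostly of 1 library. There 5.32% of tested genes were higher and 2.50% lower, against 13.7% and 6.67% with all clusters. The other changes in count have no such share beside them, so nothing is read from them. Apart from what construction fixes (fewer cells or UMIs), the cause of the changes was not tested. No paired analysis was possible because each group is 1 library. Low counts limit Btla within expanded and Pdcd1-positive liver cells and Cd244 in spleen.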
